A study of Mus musculus with 143 samples.

Results

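Single mouse oocytes that lacked both exosome ribonucleases, Dis3 and Exosc10, were compared with control oocytes of the same age. The members are 16 libraries of the 143 in the series: all 8 titled as the double conditional knockout (dcKO) and all 8 titled as control, each made from 1 oocyte with the stage label p20, read here as postnatal day 20, after removal of ribosomal RNA. The dcKO label names deletion of both genes, and the control label names no deletion. The labels state that the mutant mice were constructed by CRISPR/Cas9; the Cre driver that would delete the genes, the strain and the number of females are not given in the sources used here. In each group 4 oocytes carry title tag 1 and 4 carry title tag 2, with no statement of what a tag stands for, so a p-value here measures the spread between these oocytes. Libraries of p20 oocytes labelled Dis3 cKO (8) and Exosc10 cKO (8) entered the same fit and served to ask whether the effect of losing both genes differed from the sum of losing each.

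The nuclear RNA exosome is a ring of catalytically inactive subunits that threads RNA to its ribonucleases, DIS3 in the nucleoplasm and EXOSC10 mostly in the nucleolus. It trims structured noncoding RNAs to their mature ends and destroys promoter upstream transcripts, failed precursors and other short-lived RNA. A growing oocyte transcribes and stores the messages that it will later use for meiotic maturation and the start of embryogenesis, so its RNA pool reflects both synthesis and turnover over a long period.

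Gene counts per library ran from 16043788 to 19702270 in controls and from 8492102 to 14246463 in dcKO, so depth separated the groups without overlap. Libraries of Dis3 cKO held 9566019 to 15335017 gene counts, a range close to that of dcKO. Gene counts divided by counts of the added ERCC RNAs ran from 1043 to 1600 in controls and from 731 to 1474 in dcKO, and these ranges overlapped. The first principal component of expression took 31.8% of the variance over the 32 p20 libraries. On it the dcKO oocytes of tag 1 scored 120 to 155 and those of tag 2 scored 63.8 to 112, while controls scored -81.3 to -6.83. Control oocyte 2_4 (tag 2, oocyte 4) stood apart from the other controls and was the control nearest to the dcKO side in 43.1% of the 8531 genes called below, against 6.0% to 10.5% for each other control. Among dcKO oocytes, 2_1 was the nearest to the controls in 34.6% of those genes. Without control 2_4 the number of genes called was 8668, and without dcKO 2_1 it was 8713. The identity of the cells was checked with marker genes: all 16 oocyte markers were tested, none was at 0, and their summed level was 13939 to 18096 CPM (counts of a gene per 1e6 gene counts of its library) in controls and 18695 to 22008 CPM in dcKO. Sums over markers were not scaled further. CPM of single genes, here and below, use totals of the genes tested multiplied by edgeR's TMM factors. Of 19 granulosa cell markers 14 were tested, and their sum was 248 to 305 CPM in controls and 168 to 282 CPM in dcKO. The defining genes Foxl2, Hsd17b1 and Wnt4 did not pass the filter on low counts. Of the 14 tested 1 was called higher and 4 lower, against 26.6% and 27.1% of all genes tested, with a median log2 fold change of -0.77. Cyp19a1 fell without overlap from a median of 28.5 CPM (18.3 to 38.4) to 3.27 CPM (1.17 to 9.23). Its log2 fold change was -2.61 (SE 0.30, edgeR adjusted p 1.3e-08). Of 12 theca and stroma markers 4 were tested, with sums of 1.31 to 6.50 CPM in controls and 3.36 to 8.71 CPM in dcKO. Of 14 blood and vessel markers 3 were tested, with sums of 59.0 to 86.6 CPM and 29.3 to 58.8 CPM, and all 4 globin genes listed were at 0 in every library of both groups. The granulosa and blood sums were lower in dcKO, and their part in the results was not tested.

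**Figure D1:**
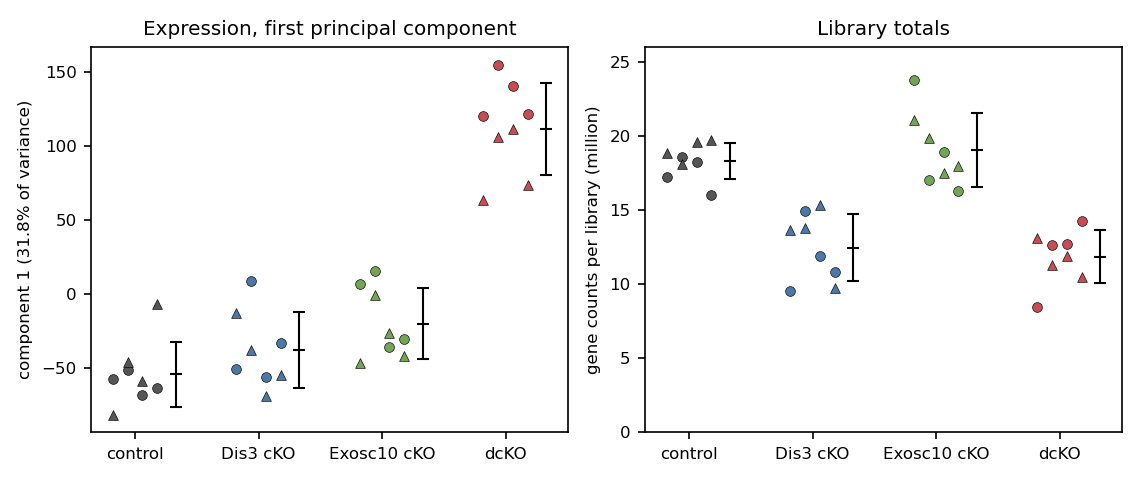
Left, score of each p20 oocyte library on the first principal component of expression; right, gene counts per library (axis in units of 1e6). Points are libraries (circles title tag 1, triangles title tag 2), and the bar beside each group is its mean ± SD (n = 8); the 8 dcKO oocytes score from 63.8 to 155 and lie above every other library, and their totals lie below every control total.

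The targeted genes were lower in every dcKO library than in every control. Exosc10 (ENSMUSG00000017264) was at 103 CPM in the lowest control, 118 at the median and 137 in the highest, and at 3.14, 4.92 and 14.8 CPM in dcKO. The groups did not overlap, and the log2 fold change, -4.01 with an SE of 0.39, had an edgeR adjusted p of 3.4e-10. Dis3 (ENSMUSG00000033166) was at 6.27, 13.95 and 20.1 CPM in controls and 1.73, 2.72 and 4.35 CPM in dcKO. These groups did not overlap either, with -2.25 on the log2 scale (SE 0.25, edgeR adjusted p 5.9e-09). Which exons are deleted is not given in the sources used here, so the remaining reads may lie outside them, and Dis3 overlaps Pibf1.

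Many genes differed between oocytes without both ribonucleases and controls. Of 15882 genes tested, 8531 differed from control at an adjusted p under 0.05 (53.7%), 4231 higher (26.6%) and 4300 lower (27.1%), and the median log2 fold change over all genes tested was -0.01. The values of the 8 dcKO and 8 control oocytes did not overlap in 3105 genes (19.6%). A log2 fold change of at least 1 in size was reached by 2530 of the higher genes and 1731 of the lower genes. Higher genes came from a lower level, with a median over genes of 7.11 CPM in controls and 19.0 CPM in dcKO, and lower genes from 43.8 CPM in controls to 25.6 CPM in dcKO. With the counts of the 4 oocytes of each title tag added up (n = 2 sums a group), 6641 of 20911 genes were called, 3359 higher and 3282 lower. With libraries scaled to ERCC counts 6071 of 15882 were called, 2833 higher and 3238 lower. After all libraries were thinned to the same total of 8492102 counts, 7755 genes were called and 7529 of them were among the 8531.

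The genes with the largest fall, among those at 10 CPM or more, without overlap and with title tags less than 1 apart on the log2(CPM + 1) scale within each group, included Ust, Chst11, Flt1 and Cdk6. Ust, the uronyl 2-sulfotransferase that sulfates chondroitin and dermatan chains, was at 10.7, 28.8 and 63.7 CPM (lowest, median, highest) in controls and 0, 0.742 and 2.08 CPM in dcKO, which is -4.98 on the log2 scale (SE 0.58, edgeR adjusted p 1.4e-08). Chst11, a chondroitin 4-O-sulfotransferase at chr10:82984440-83195904 (mm10, GRCm38.p6), was at 12.9, 64.4 and 78.7 CPM in controls and 0.643, 2.16 and 5.83 CPM in dcKO. No Chst11 value in dcKO reached the lowest control value, which came from control 2_4, and on the log2 scale it fell by 4.60 (SE 0.52, edgeR adjusted p 6.3e-09). Flt1, a receptor of vascular endothelial growth factor, went from a median of 60.3 CPM (27.5 to 93.4) to 2.10 CPM (1.38 to 6.18), a log2 fold change of -4.44. The log2 fold changes of the receptor and adhesion genes Cdh17 (a cadherin), Cxcr3 (a chemokine receptor) and Cd4 (a T cell co-receptor) were -4.68, -3.84 and -3.75. The cell cycle kinase gene Cdk6 had a median of 15.1 CPM (9.61 to 22.7) in controls and 0.675 CPM (0 to 2.68) in dcKO. The other genes of this group were Rnf152 (-4.75), an E3 ubiquitin ligase of the lysosome, Trib2 (-3.91), a pseudokinase, Etl4 (-3.63) and the long noncoding or predicted genes Gm43574 (-4.53) and Gm14164 (-3.94). In the single knockouts each of the 12 genes had a smaller log2 fold change against the shared controls, for example -0.42 for Chst11 in Dis3 cKO and -1.93 in Exosc10 cKO, and -0.50 and -1.79 for Cdh17. The 12 were chosen by the size of their fall in dcKO, which favours this order.

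The genes with the largest rise under the same limits included many predicted or noncoding genes that were near 0 in controls. Zfp871, a zinc finger gene at chr17:32765496-32788287, was at 0.116, 0.374 and 2.89 CPM in controls and 10.7, 91.3 and 183 CPM in dcKO. The groups did not overlap, the rise was 6.72 on the log2 scale (SE 0.79, edgeR adjusted p 1.4e-08), and the highest control was again 2_4. The long noncoding gene 2610017A05Rik and the gene 4930518J20Rik, which has no biotype in the annotation used, were at medians of 0.392 and 0.475 CPM in controls and at 22.2 and 24.0 CPM in dcKO, with log2 fold changes of 5.35 (SE 0.39) and 5.39 (SE 0.38). 9530018F02Rik (6.36), 2410022M11Rik (5.31), Gm43545 (5.63), Gm43570 (5.83), Gm6658 (5.87), Gm49412 (7.06) and Smim10l1 (5.49) followed the same course, and Cdsn, which encodes the skin adhesion protein corneodesmosin, had a log2 fold change of 7.53 from controls in which 6 of 8 oocytes had no read. Of these, 2410022M11Rik, 2610017A05Rik and 9530018F02Rik overlap the genes Zmym5, Ipo8 and Fut8 in the annotation, and reads of the partners cannot be told apart because no source states whether counting used strand. Mt1, which encodes the metal-binding protein metallothionein 1, was at 0 to 0.717 CPM in controls and 46.2 to 110 CPM in dcKO, but it was also at a median of 77.3 CPM in Dis3 cKO and 77.2 CPM in Exosc10 cKO. Its log2 fold change was 7.67 in dcKO, 7.76 in Dis3 cKO and 7.93 in Exosc10 cKO.

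**Figure D2:**
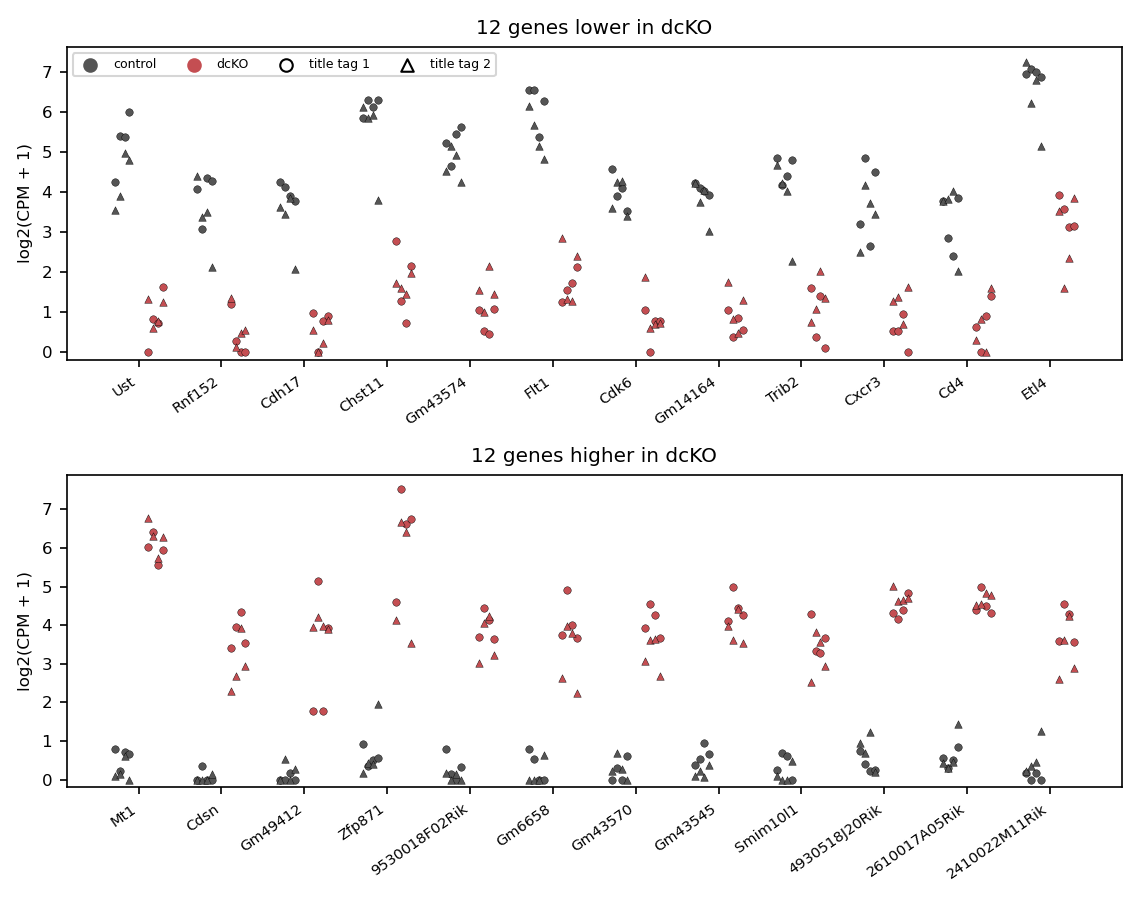
Level of the 12 genes with the largest fall (top) and the 12 with the largest rise (bottom) in dcKO among genes at 10 CPM or more, without overlap and with tags less than 1 apart, as log2(CPM + 1) in each oocyte library (grey control, red dcKO, circles title tag 1, triangles title tag 2). The groups do not overlap for any of the 24 genes, which was a condition of their choice, and control 2_4 is the isolated low triangle of Chst11 and the isolated high triangle of Zfp871.

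By difference in CPM, and under the same limits on overlap and tags, the largest falls included those of Mdm4, Brca2 and Ern1. Mdm4, an inhibitor of p53, was at 2327, 2936 and 3518 CPM in controls and 619, 1051 and 1854 CPM in dcKO (log2 fold change -1.32, SE 0.15, edgeR adjusted p 1.3e-08). Brca2, the homologous recombination gene at chr5:150522297-150570147, was at 920, 1020 and 1135 CPM in controls and 194, 319 and 511 CPM in dcKO (log2 fold change -1.62, SE 0.13, edgeR adjusted p 1.3e-11). Every dcKO oocyte was below every control for both genes. Ern1, the sensor kinase and ribonuclease of the unfolded protein response, fell from a median of 2311 to 1441 CPM (-0.72), Hivep1, a zinc finger transcription factor, from 1205 to 435 CPM (-1.52), and Nlrp4f, of the oocyte Nlrp family, from 1567 to 815 CPM (-0.96). Rdx, which encodes the actin linker radixin (-0.55), Mtus1 (-0.48) and the long noncoding RNA C86187 (-0.80) also fell. Among genes without overlap of the groups and with tags less than 1 apart on the log2(CPM + 1) scale, the largest rises in CPM reported here were in Gdf9 (0.29), Dazl (0.57), Vrtn (0.68), Plxna1 (1.05), Rbbp6 (2.19), Sirt1 (1.5) and Ccno (0.39). Rbbp6, which encodes a subunit of the polyadenylation machinery, went from 50.8, 76.5 and 110 CPM to 208, 385 and 534 CPM, and Sirt1, a deacetylase, from 98.9, 163 and 256 CPM to 319, 469 and 623 CPM. In Dis3 cKO these 7 genes had log2 fold changes between -0.05 and 0.48.

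The direction of change went with gene length. Protein-coding genes were divided into 5 equal classes by their span in the genome, from start to end with introns. The median log2 fold change in dcKO was 0.27 in the shortest class (up to 8.81 kb), then 0.12, 0.02, -0.14 and -0.36 in the longest class (79.7 kb and above). In the shortest class 36.7% of genes were called higher and 13.7% lower, and in the longest class 15% and 46.6%. Median span was 18.5 kb for higher genes, 45 kb for lower genes and 26.2 kb for all protein-coding genes placed. For each oocyte the median log2(CPM + 1) of the longest class minus that of the shortest class was taken: it was 2.11 ± 0.10 in controls (1.91 to 2.24) and 1.24 ± 0.28 in dcKO (0.79 to 1.67; SD, n = 8 each). The groups did not overlap, and the difference of -0.86 had a 2-sided exact permutation p of 0.000155, the smallest that 8 against 8 oocytes can give (0.000389 after adjustment over 5 such comparisons). The same measure was 2.13 ± 0.10 in Dis3 cKO and 1.95 ± 0.19 in Exosc10 cKO, differences from control of 0.02 (exact permutation p 0.72) and -0.16 (p 0.0494, adjusted 0.0618). dcKO differed from Dis3 cKO by -0.88 (exact permutation p 0.000155, adjusted 0.000389) and from Exosc10 cKO by -0.70 (p 0.000311, adjusted 0.000518). This comparison was added after the medians by class had been seen. Level moved with the change as well: of the protein-coding genes in the highest of 5 level classes 16.1% were called higher and 51.8% lower. Within each of the 5 level classes the shortest genes still had a higher median log2 fold change than the longest, with 0.50 against -0.37 in the lowest class and -0.10 against -0.36 in the highest. The falls by span were larger in dcKO tag 1 than in tag 2, at -0.59 to -0.85 against -0.28 to -0.48 in single oocytes when each was set against the control mean.

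**Figure D3:**
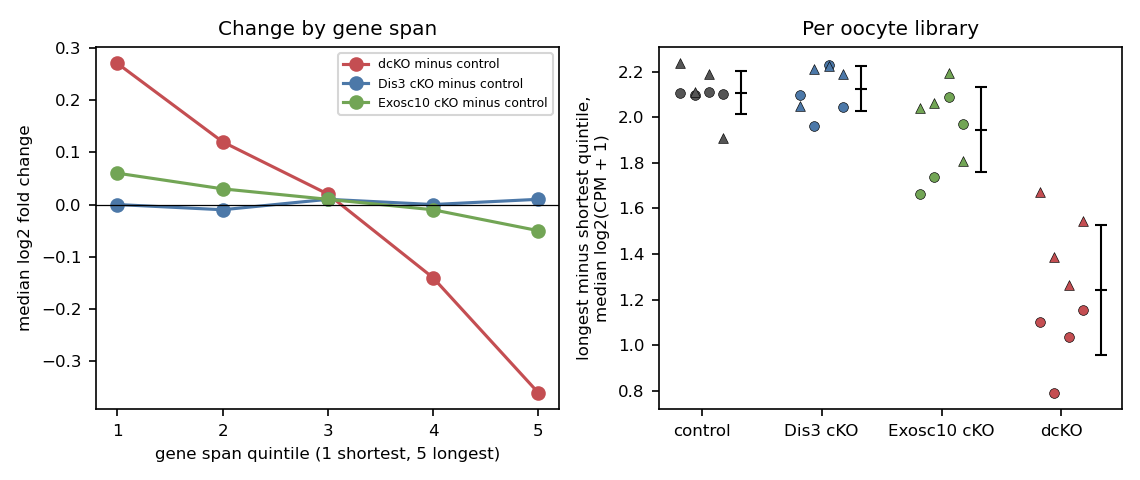
Left, median log2 fold change against control of protein-coding genes in 5 classes of genomic span, for each knockout group; right, the longest minus the shortest class in median log2(CPM + 1) for each oocyte, with group mean ± SD (n = 8). The dcKO line falls from 0.27 to -0.36 while the lines of the single knockouts stay between -0.05 and 0.06, and no dcKO oocyte (0.79 to 1.67) reaches the lowest control (1.91).

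Replication-dependent histone genes were among the shortest genes and rose together. These genes make the histones of S phase, lack introns, and end their messages in a stem-loop in place of a poly(A) tail, so they are read in total RNA. Their share of gene counts was 0.0828 ± 0.0167% in controls (0.0600 to 0.115%) and 0.247 ± 0.100% in dcKO (0.110 to 0.394%; SD, n = 8 each), which is 1.47 higher on the log2 scale (exact permutation p 0.000466; 0.00117 after adjustment over 5 gene classes). The lowest dcKO oocytes, both of tag 2, overlapped the highest control, and the mean share was 0.326% in tag 1 and 0.168% in tag 2. Of 69 such genes 41 passed the filter; 28 rose and 0 fell (68.3% higher, against 26.6% higher and 27.1% lower among all genes tested), and the median log2 fold change was 1.93 against -0.01 for all genes tested. Scaling to ERCC counts gave 27 higher and 0 lower, and summing per tag 29 and 0. Without dcKO tag 1 the numbers were 21 and 0 and the median was 1.20, and without tag 2 they were 31 and 0 with 2.40. The share was 0.0811 ± 0.0189% in Dis3 cKO and 0.144 ± 0.0553% in Exosc10 cKO. Of the 41 genes 13 were called in Exosc10 cKO, 12 of them higher, and 5 in Dis3 cKO, 2 of them higher. The others called were lower. Of all genes tested 7.45% were called in Exosc10 cKO (3.95% higher) and 7.37% in Dis3 cKO (3.61% higher). Many of these genes have near-identical copies, and the handling of shared reads is not stated.

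Hist1h3c, which encodes histone H3, was at 0.460, 1.36 and 5.56 CPM in controls and 24.6, 153 and 260 CPM in dcKO, a rise of 6.12 on the log2 scale (SE 0.59, edgeR adjusted p 2.9e-10). No dcKO oocyte overlapped a control, and Exosc10 cKO oocytes had a median of 2.25 CPM. Hist1h4i, a histone H4 gene, was at 9.91, 13.4 and 22.7 CPM in controls and 52.2, 144 and 191 CPM in dcKO (log2 fold change 3.09, SE 0.23), and at a median of 57.8 CPM in Exosc10 cKO. Hist1h4h (2.95, SE 0.27) and the linker histone gene Hist1h1d (2.83, SE 0.31) showed values in Exosc10 cKO between those of control and dcKO, with log2 fold changes of 1.89 and 1.73 there. The upstream sequences of Hist1h3c and Hist1h1d are shown because these genes moved together and because histone promoters are known for their CCAAT and TATA boxes. They are RefSeq sequences of GRCm38.p6, 250 bases before to 50 after the annotated start, read 5′ to 3′ on the gene's strand, with each TATAAA and CCAAT (and their reverse complements TTTATA and ATTGG) in capitals; Hist1h3c is at chr13:23745472-23745771 on the minus strand and Hist1h1d at chr13:23554782-23555081 on the plus strand.
Hist1h3c: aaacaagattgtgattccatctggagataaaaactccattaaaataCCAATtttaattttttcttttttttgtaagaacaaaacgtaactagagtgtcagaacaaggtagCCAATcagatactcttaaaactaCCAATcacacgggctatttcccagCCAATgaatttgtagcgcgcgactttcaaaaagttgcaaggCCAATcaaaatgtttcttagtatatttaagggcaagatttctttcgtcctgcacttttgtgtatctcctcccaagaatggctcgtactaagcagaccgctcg
Hist1h1d: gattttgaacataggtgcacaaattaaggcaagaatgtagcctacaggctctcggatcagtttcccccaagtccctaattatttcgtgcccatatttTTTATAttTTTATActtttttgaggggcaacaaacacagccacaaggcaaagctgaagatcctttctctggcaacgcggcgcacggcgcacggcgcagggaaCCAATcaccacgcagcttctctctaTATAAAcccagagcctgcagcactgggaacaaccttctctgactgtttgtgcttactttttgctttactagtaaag
Of the 28 histone genes that rose 25 were in the promoter table, with 26 start sites. CCAAT in either direction was in 84.6% of these windows and TATAAA in 53.8%, against 37.4% and 13.6% of all 32851 windows in the table. Over all 62 windows of replication-dependent histone genes the shares were 85.5% and 56.5%, so the genes that rose held these letters about as often as the family. Among genes tested, windows with TATAAA made up 6.8% of those of higher genes and 8.9% of those of lower genes. For CCAAT the shares were 38.1% and 37.5%.

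**Figure D4:**
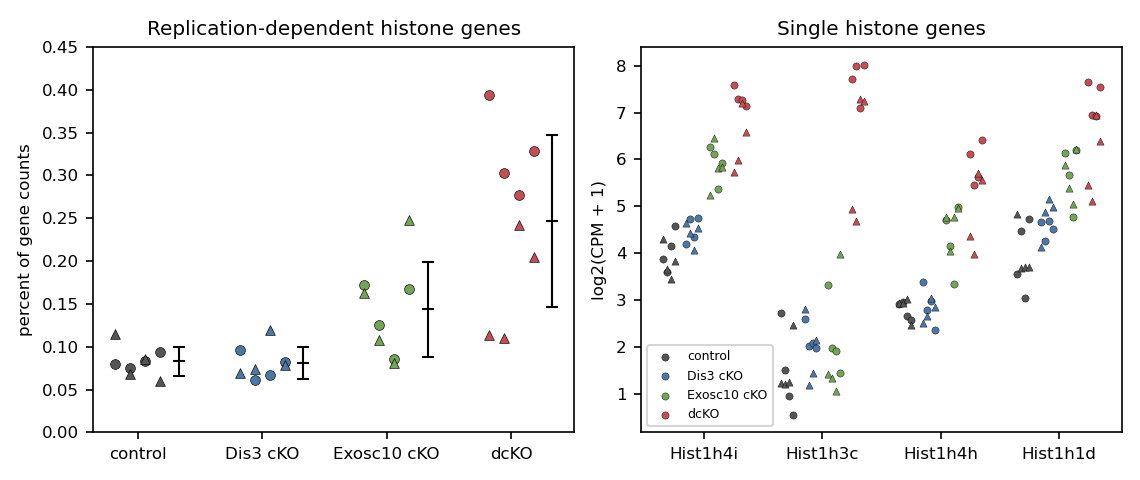
Left, share of gene counts from replication-dependent histone genes in each p20 oocyte library, with group mean ± SD (n = 8); right, log2(CPM + 1) of 4 histone genes in the same libraries (circles title tag 1, triangles title tag 2). dcKO oocytes reach up to 0.394% against at most 0.115% in controls, 2 dcKO oocytes of tag 2 lie within the control range, and the medians of Exosc10 cKO lie between those of control and dcKO for all 4 genes.

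Other classes of noncoding RNA changed less or in mixed directions. Long noncoding RNA made up 1.19 ± 0.0467% of gene counts in controls and 1.11 ± 0.0418% in dcKO (exact permutation p 0.00497, adjusted 0.00829), and of 1011 long noncoding genes tested 287 were higher and 192 lower (28.4% and 19.0%). The share of higher genes was thus close to the 26.6% of all genes tested, and that of lower genes was below their 27.1%. Without C86187, the long noncoding RNA with the most counts, the log2 difference in share was -0.02 (exact permutation p 0.46). Pseudogenes rose in share from 0.296 ± 0.0130% to 0.338 ± 0.0182% (exact permutation p 0.000311, adjusted 0.00117), while of 585 tested 103 were higher and 178 lower (17.6% and 30.4%). Mitochondrially encoded RNA (0.792 ± 0.108% and 0.844 ± 0.141%, exact permutation p 0.429) and small nucleolar and small nuclear RNA (0.00843 ± 0.00105% and 0.00866 ± 0.00187%, p 0.859) did not differ beyond the spread between oocytes. Of 11 structured noncoding RNAs tested, a list that holds known exosome substrates and RNase components, 6 rose and 0 fell, with a median of 0.67, against 26.6% higher and 27.1% lower among all genes tested. The numbers were 4 and 0 with counts scaled to ERCC and 3 and 0 without dcKO tag 1, and the median of the list was 0.60 in Dis3 cKO and 0.83 in Exosc10 cKO. Rmrp, the RNA of the mitochondrial RNA processing ribonuclease, was at 0.174, 3.89 and 9.07 CPM in controls and 8.36, 13.2 and 22.6 CPM in dcKO, so that the groups overlapped slightly (log2 fold change 1.85, SE 0.46). Rpph1, the RNA of RNase P, was at 3.65, 4.60 and 5.85 CPM against 7.36, 10.1 and 14.9 CPM without overlap (1.23, SE 0.27). Rnu11 and Rnu12, RNAs of the minor spliceosome, had log2 fold changes of 3.22 and 2.87, but rest on 23 and 14 reads over the 8 controls. Of 15 long noncoding RNAs that host small nucleolar RNAs or are widely expressed or imprinted (Malat1, Meg3, Kcnq1ot1 and Airn), 6 rose and 2 fell (median 0.63), against the same 26.6% higher and 27.1% lower, with the host genes Zfas1 (2.29) and Snhg6 (1.11) among those that rose. Without dcKO tag 1 the numbers were 4 and 0 with a median of 0.25, and without tag 2 they were 8 and 1 with a median of 0.99. At an equal depth of 8492102 counts, 19586 ± 427 genes had at least 1 count in dcKO and 19238 ± 447 in controls (exact permutation p 0.135). With at least 5 counts the numbers were 15298 ± 154 and 14638 ± 262, a difference of 660 genes (exact permutation p 0.000155).

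Genes of the exosome itself did not move as a group, and the counts of this paragraph stand against 26.6% higher and 27.1% lower among all genes tested. Of 8 ring and cap subunits tested, Exosc2 rose (log2 fold change 1.17), Exosc8 (-0.29) and Exosc9 (-0.82) fell, and 5 did not pass the test. Exosc9, which overlaps Ccna2, was at 43.5, 51.4 and 62.5 CPM in controls and 14.4, 30.1 and 43.6 CPM in dcKO, and its value in Dis3 cKO was -1.0. Of the related nucleases and cofactors, Dis3l, the cytoplasmic paralogue of Dis3, fell (-0.75), as it did by a similar size in Dis3 cKO (-0.73), and C1d, a cofactor of EXOSC10, rose (1.69). Of 16 adaptor genes that bring RNA to the exosome 4 rose and 5 fell. The helicase gene Mtrex was at 80.3, 95.3 and 105 CPM in controls and 44.2, 52.2 and 69.7 CPM in dcKO (-0.82, SE 0.09), and the poly(A) polymerase gene Tent4b (-0.74) and Rbm26 (-0.89) also fell without overlap. Srrt, which encodes the cap-binding partner ARS2, rose from a median of 40.2 to 108 CPM (1.42, SE 0.10). In cytoplasmic decay 10 of 24 genes rose and 10 fell (6 and 7 with ERCC scaling): Ttc37 of the SKI complex (-1.45), the nonsense-mediated decay gene Upf3b (-2.05), the decapping enzyme gene Dcp2 (-1.19) and Patl1 (-0.85) had the smallest p. Of 16 deadenylation genes 3 rose and 8 fell (1 and 5 with ERCC scaling), with a median of -0.22. Btg4, the adaptor that brings the CCR4-NOT deadenylase to maternal messages, was at 979, 1273 and 1532 CPM in controls and 543, 691 and 853 CPM in dcKO (-0.85, SE 0.10, edgeR adjusted p 2.4e-08), and Cnot7 (-1.06), Cnot6l (-0.56) and Cnot3 (-0.51) fell with it.

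Genes of the transcription machinery moved in both directions, at shares that are to be read against the 26.6% higher and 27.1% lower among all genes tested. Of 13 RNA polymerase II subunit genes 4 rose and 4 fell; Polr2a, the catalytic subunit, was at 92.6, 119 and 178 CPM in controls and 128, 190 and 267 CPM in dcKO, with overlap (log2 fold change 0.61, SE 0.14), Polr2m rose (1.69), and Polr2b (-0.24) and Polr2g (-0.40) fell. Of 30 elongation genes 10 rose and 11 fell. Cdk9, the kinase that releases paused polymerase, was at 9.75, 13.99 and 21.4 CPM and 18.5, 43.1 and 75.01 CPM (1.71, SE 0.23), Cdk13 rose by 1.16, Aff4 of the super elongation complex by 1.89, and the elongation factor gene Supt6 fell (-0.69). Of 31 genes of 3′ end formation and termination 11 rose and 10 fell. Clp1, a cleavage factor kinase, was at 2.32, 3.48 and 6.62 CPM in controls and 8.54, 24.4 and 68.6 CPM in dcKO without overlap (2.81, SE 0.34), and Cpsf7 (1.51), Cstf3 (1.61) and Ints5 (1.23) rose too. Among 23 splicing genes 5 rose and 8 fell, with Sf3b1 (-0.79) and Sf3b2 (-0.88) lower and Srsf11 (0.96) higher. With counts scaled to ERCC the numbers higher and lower were 2 and 2 for polymerase subunits and 9 and 9 for elongation. For 3′ end formation they were 7 and 8, and for splicing 4 and 4. The median of the splicing list was -0.13 in the main fit and -0.2 under that scaling. Fewer splicing genes were thus called, while the median did not shrink.

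Among genes of oocyte identity, falls outnumbered rises in the lists of secreted factors and of transcription factors, while Gdf9 rose slightly. The 16 defining oocyte markers were split, with 6 higher and 7 lower and a median of 0.13 (3 and 2 with ERCC scaling). Their summed level, taken without TMM factors, was higher in every dcKO oocyte than in every control. The sum was not computed with the scaling used for the calls. Gdf9, the growth factor by which the oocyte signals to granulosa cells, was at 2561, 4100 and 4365 CPM in controls and 4562, 4709 and 5188 CPM in dcKO (log2 fold change 0.29, SE 0.09, edgeR adjusted p 0.0045). The groups did not overlap, but the lowest control, 2_1, lay apart from the other controls. Its partner Bmp15 was at 3036, 3577 and 3783 CPM against 2475, 2965 and 3415 CPM, with overlap (-0.22, SE 0.08, edgeR adjusted p 0.021). Of 13 oocyte secreted factors, receptors and related genes 2 rose and 9 fell (15.4% and 69.2% of the list, against 26.6% and 27.1% of all genes tested), with a median of -0.38. Protein-coding genes of the highest of the 5 level classes (94.7 CPM and above) were lower in 51.8%. The part of level in the falls of this list and of the transcription factor list was not tested. Kit, the receptor by which granulosa-derived KIT ligand acts on the oocyte, was at 629, 720 and 771 CPM in controls and 351, 473 and 617 CPM in dcKO (-0.59, SE 0.08, edgeR adjusted p 3.4e-07). Bmp6 (-0.87), Oosp3 (-0.88) and the anti-apoptotic gene Bcl2l10 (-0.69) also fell. Of 16 oocyte transcription factor genes 4 rose and 9 fell (median -0.46, and -0.27 without dcKO tag 1). Nobox, a homeobox factor that drives oocyte genes, was at 342, 421 and 459 CPM in controls and 159, 309 and 379 CPM in dcKO (-0.46, SE 0.11), Lhx8 had a value of -0.59, and Obox2 (-1.01), Obox1 (-0.54) and Obox5 (-0.51) fell without overlap. Figla (0.48) and Yy1 (1.11) rose. With ERCC scaling the secreted list had 0 higher and 7 lower, and the transcription factor list 1 and 7. The Obox genes are near copies of each other, so reads may have been split between them.

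Genes of maternal stores moved in both directions, again beside 26.6% higher and 27.1% lower among all genes tested. In the highest of the 5 level classes the shares of protein-coding genes were 16.1% and 51.8%. Of 17 genes of maternal RNA storage and translational control 4 rose and 10 fell (median -0.39). Zar1l was at 89.8, 131 and 145 CPM in controls and 48.5, 57.3 and 78.4 CPM in dcKO (log2 fold change -1.05, SE 0.13), Eif4enif1, which encodes the repressor 4E-T, fell (-0.55), and so did Pum2 (-0.47). Dazl, which encodes a translational activator, was at 710, 794 and 929 CPM against 985, 1239 and 1394 CPM without overlap (0.57, SE 0.09). Of 17 subcortical maternal complex and Nlrp genes 3 rose and 9 fell (median -0.27); Nlrp9c (-1.59), Nlrp2 (-1.36) and Nlrp4b (-0.70) fell, whereas Nlrp5, also called Mater, had a median of 1209 CPM in controls and 2088 CPM in dcKO (0.67, SE 0.13). Scaling to ERCC counts gave 1 higher and 8 lower for storage and translational control and 2 and 7 for the subcortical complex and Nlrp genes. Of 10 zona pellucida and fertilization genes 3 rose and 4 fell, and under ERCC scaling 0 rose and 3 fell. No rise in this list was thus called under that scaling, while its median moved little, from -0.1 to -0.15. Zp2 was at 1299, 1522 and 1739 CPM in controls and 1345, 2144 and 3014 CPM in dcKO, with overlap (0.52, SE 0.16), Zp1 (0.16) and Zp3 (0.34) did not pass the test, and Izumo1r, which encodes the sperm receptor JUNO, fell (-0.99). Zp2 had values of -0.30 and -0.44 in Dis3 cKO and Exosc10 cKO.

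Among genes of CDK1 activity and of meiotic arrest more fell than rose. Of 22 genes of CDK1 activity and maturation 3 rose and 13 fell (13.6% and 59.1% of the list, against 26.6% and 27.1% of all genes tested), with a median of -0.27. Scaling to ERCC counts gave 1 and 9. In the highest of the 5 level classes 51.8% of protein-coding genes were called lower, and the part of level in these falls was not tested. Ccnb3, which encodes a B-type cyclin needed at anaphase, was at 6.42, 8.90 and 12.7 CPM in controls and 0.0709, 0.717 and 2.54 CPM in dcKO (log2 fold change -3.41, SE 0.42, edgeR adjusted p 3.3e-08). Mastl, the Greatwall kinase, fell from a median of 417 to 240 CPM (-0.74). Mos, the kinase that activates the MAPK pathway in maturing oocytes, was higher without overlap, at 278, 315 and 360 CPM against 445, 481 and 536 CPM (0.62, SE 0.07). The CDK1 catalytic gene Cdk1 did not pass the test (0.12, SE 0.11), and Ccnb1 had a value of -0.19 at an edgeR adjusted p of 0.046. Of 14 genes of cAMP-dependent arrest 3 rose and 7 fell (1 and 5 with ERCC scaling). Pde3a, the phosphodiesterase that breaks down cAMP when arrest ends, was at 568.2, 604 and 647 CPM in controls and 187, 327 and 505 CPM in dcKO (-0.86, SE 0.13), and Gpr3, the receptor that keeps cAMP high, was at 114, 138 and 155 CPM against 33.1, 81.9 and 130 CPM (-0.80, SE 0.20). Rgs2 (-0.68) and Wee2 (-0.37), an oocyte inhibitor kinase of CDK1, also fell, and Prkaca rose (0.65). In the KIT to mTOR pathway 8 of 21 genes rose and 8 fell (2 and 5 with counts scaled to ERCC), with Tsc1 (0.60) and Eif4ebp2 (1.14) among those higher. Of 21 spindle and cohesin genes 2 rose and 6 fell, a share of falls near that of all genes tested.

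Polycomb repressive complex 2, the complex that places H3K27me3, had falls and no rise. Of 14 members and antagonists tested 0 rose and 8 fell (57.1%, against 27.1% of all genes tested), with a median of -0.26, and scaling to ERCC counts gave 0 and 5. Abundant genes fell often: in the highest of the 5 level classes (94.7 CPM and above) 16.1% of protein-coding genes were higher and 51.8% lower. The part of level in the falls of this list was not tested. Suz12, a core subunit, was at 656, 759 and 992 CPM in controls and 329, 446 and 580 CPM in dcKO (log2 fold change -0.83, SE 0.11, edgeR adjusted p 2.2e-07), and Ezh2, the methyltransferase, at 443, 482 and 533 CPM against 166, 289 and 382 CPM (-0.78, SE 0.12, edgeR adjusted p 1.9e-06). Neither gene's groups overlapped. Eed (-0.37) and Aebp2 (-0.75) fell, and Kdm6b, a demethylase that removes H3K27me3, fell as well (-0.91). All 5 of these had values between -0.32 and 0.14 in the single knockouts. In Polycomb complex 1, 6 of 19 genes rose and 8 fell, with Ring1 (2.51) and Cbx2 (0.60) higher and Kdm2b (-1.24) and Usp7 (-0.57) lower. Under ERCC scaling 5 rose and 4 fell, so the order of the counts of calls changed. The median of the list hardly moved, at -0.12 in the main fit and -0.14 under that scaling. Among 20 genes of H3K4 and H3K36 methylation 7 rose and 6 fell; the demethylases Kdm5a (2.19) and Kdm5c (0.87) rose, and the methyltransferases Nsd1 (-1.17) and Kmt2c (-0.74) fell. With ERCC scaling that list had 2 higher and 3 lower. Of 13 DNA methylation genes 3 rose and 3 fell (2 and 3 with ERCC scaling). Tet2, which oxidizes methylcytosine, was at 17.8, 22.2 and 26.2 CPM in controls and 57.2, 97.4 and 148 CPM in dcKO (2.12, SE 0.15), Uhrf2 rose (2.36), and Dnmt3a (-0.62), Dnmt3l (-0.59) and Uhrf1 (-0.56) fell.

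**Figure D5:**
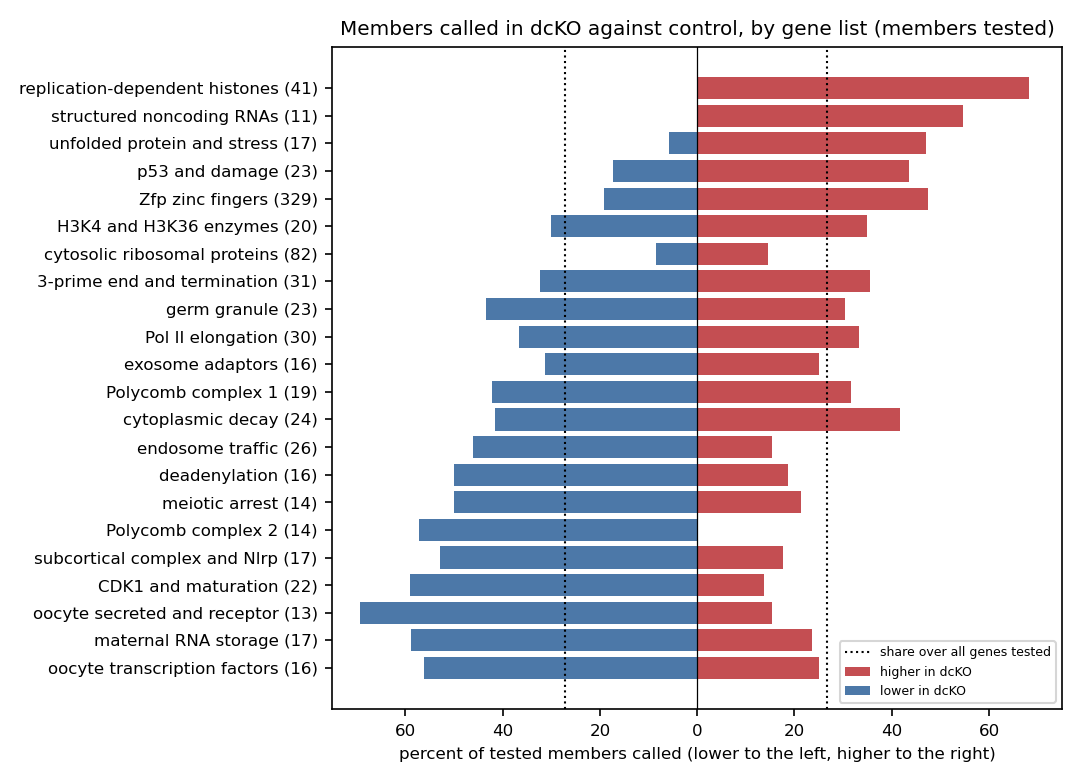
Percent of the tested members of 22 gene lists that were called higher (red, to the right) or lower (blue, to the left) in dcKO against control at an edgeR adjusted p under 0.05, sorted by the list's median log2 fold change, with the number of members tested in brackets. Dotted lines mark the shares over all 15882 genes tested, 26.6% higher and 27.1% lower, and do not take level into account. Histone genes have 68.3% higher and none lower, and Polycomb complex 2 has 57.1% lower and none higher.

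The deposited CUT&Tag peak lists, made from p20 oocytes in bulk, were read at the start sites of these genes. CUT&Tag cuts and tags chromatin at a bound antibody, and a start site was counted as marked when a peak lay within 1 kb in all 3 lists of a group. In controls 10.6% of 2980 lower genes and 7.4% of 2792 higher genes had an H3K27me3 peak, against 10.8% of all 10366 protein-coding genes placed. Within the 5 classes of level, from low to high, the shares were 26.1%, 19.1%, 12.3%, 8.2% and 2.7% of lower genes and 20.1%, 9.0%, 4.3%, 3.3% and 3.3% of higher genes, so that at 1 kb the share was larger among lower genes in each class but the highest. Pol II peaks of controls lay at 2.0% of lower and 4.2% of higher genes, against 3.5% of all genes placed and 3.9% of those not called. By class of level, from low to high, the Pol II shares were 1.5%, 1.5%, 1.0%, 3.0% and 2.3% of lower genes. Those of higher genes were 5.1%, 5.0%, 3.9%, 3.0% and 4.4%. With 5 kb on each side Pol II peaks lay at 12.5% of lower and 16.7% of higher genes, with 14.9% of all genes. In dcKO the H3K27me3 shares were 6.3% of lower and 3.5% of higher genes, with 6.4% of all genes. When a peak within 1 kb was needed in at least 2 of the 3 lists, they were 14.1%, 7.8% and 13.3%. In controls they were then 14.3%, 11.3% and 14.8%, so the gap between the groups depended on this choice. With 5 kb on each side the control H3K27me3 shares were 15.7% of lower genes, 15.4% of higher genes and 20.8% of those not called. From the lowest to the highest class of level they were 34.6%, 27.6%, 18.7%, 12.4% and 5.4% of lower genes. Those of higher genes were 36.9%, 17.6%, 10.6%, 8.7% and 8.2%. At 5 kb lower genes thus had the larger share in the 3 middle classes, and the lowest class turned with the window. At that width the shares of all genes were 17.9% in controls and 19.7% in dcKO, so the order of the groups turned with the window. The peak lists held 151535 to 159895 peaks per control library and 244827 to 299716 per dcKO library, were called by the authors per library, and the shares were not tested.

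More genes rose than fell in a list of endoplasmic reticulum stress and in a mixed list of p53 targets, DNA damage checkpoint and apoptosis. Of 17 genes of the unfolded protein and integrated stress responses 8 rose and 1 fell (47.1% of the list higher, against 26.6% of all genes tested), with a median of 0.46. Without dcKO tag 1 the numbers were 4 and 1 with a median of 0.25, and with counts scaled to ERCC they were 6 and 1. Xbp1, the transcription factor whose message is spliced by IRE1, was at 0.116, 1.11 and 3.83 CPM in controls and 4.39, 16.1 and 27.4 CPM in dcKO without overlap (log2 fold change 3.53, SE 0.57, edgeR adjusted p 3.8e-06). The chaperone gene Hspa5, also called BiP (it overlaps Rabepk), was at 138, 162 and 202 CPM against 165, 342 and 460 CPM, with overlap (0.97, SE 0.20). Dnajb9 (1.84), Chac1 (1.16), Ddit3 (0.80) and Atf4 (0.46) rose, while Ern1, which encodes IRE1 itself, fell (-0.72, as given above) but is not among the 17 genes counted here. In Dis3 cKO the values of Xbp1, Hspa5 and Dnajb9 were -0.26, -0.20 and -0.31. Those of Chac1, Ddit3 and Atf4 were 0.71, -0.33 and -0.12 in Dis3 cKO and -0.33, 0.52 and 0.21 in Exosc10 cKO. None of these values of Chac1, Ddit3 and Atf4 passed the test. Of 23 genes tested in the mixed list 10 rose and 4 fell (median 0.46), against 26.6% higher and 27.1% lower among all genes tested. The numbers were 5 and 3 under ERCC scaling, 6 and 4 without control tag 1, and 7 and 3 with a median of 0.26 without dcKO tag 1. Of its 27 members Cdkn1a, Bbc3, Phlda3 and Eda2r were not tested. Ccng1, a p53 target, went from 3.82, 7.95 and 14.5 CPM to 25.3, 32.3 and 67.6 CPM (2.05, SE 0.26), Mcl1 (1.04) and Trp53 itself (0.46) rose, and Mdm4, Mdm2 (-0.33), Ddit4 (-0.93) and Trp63 (-0.46) fell.

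Zinc finger genes named Zfp, many of which encode KRAB repressors of transposons, made up the largest family described here. Of 329 tested 156 rose and 63 fell (47.4% and 19.1%, against 26.6% and 27.1% of all genes tested), with a median of 0.39, and scaling to ERCC counts gave 117 and 48. Zfp616 was at 314, 366 and 370 CPM in controls and 15.9, 37.1 and 64.6 CPM in dcKO (log2 fold change -3.15, SE 0.20, edgeR adjusted p 2.5e-14), and Zfp735 at 133, 165 and 197 CPM against a median of 11 CPM (3.78 to 30.9; -3.51, SE 0.27). Zfp292 rose from 8.18, 14.5 and 18.1 CPM to 51.8, 100 and 159 CPM (2.82, SE 0.20). Members of this family share sequence, so reads of close copies may have been split.

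Most genes of the ribosome and of oxidative phosphorylation did not pass the test, which 53.7% of all genes tested did (26.6% higher, 27.1% lower). Of 82 cytosolic ribosomal protein genes 12 rose and 7 fell (14.6% and 8.5%), of 76 mitochondrial ribosomal protein genes 20 rose and 14 fell, of 80 nuclear genes of oxidative phosphorylation 17 rose and 8 fell, and of 35 proteasome genes 6 rose and 10 fell (3 and 8 with ERCC scaling). Without dcKO tag 1 the numbers were 2 and 6 for cytosolic ribosomal protein genes, 9 and 12 for mitochondrial ones and 5 and 9 for oxidative phosphorylation, so the balance of directions turned in all 3 families. With counts scaled to ERCC they were 6 and 3, 15 and 13, and 6 and 8. Of 26 genes of endosome traffic 4 rose and 12 fell (median -0.19), and with ERCC scaling 4 and 6. The early endosome tether Eea1 was at 319, 364 and 390 CPM in controls and 52.8, 140 and 219 CPM in dcKO (log2 fold change -1.36, SE 0.14), Rab7 fell (-1.11) and Rab1a rose (1.28). Of 17 amino acid transporter genes 3 rose and 5 fell, with Slc6a15, a carrier of branched-chain amino acids, at 33.8, 70.2 and 95.8 CPM in controls and 0, 2.49 and 7.22 CPM in dcKO (-4.64, SE 0.42), and the cystine carrier gene Slc7a11 lower (-1.13). Among 23 germ granule and small RNA genes 7 rose and 10 fell. Tex15 (-1.58), Ago3 (-1.95) and Tdrd1 (-0.83) fell, and Rbm44 (-1.43) fell here and in Dis3 cKO (-2.31).

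To ask whether losing both ribonucleases gave more than the sum of losing each, the dcKO minus Dis3 cKO difference was compared with the Exosc10 cKO minus control difference. In the same fit Dis3 cKO differed from control in 1171 genes (7.37%) and Exosc10 cKO in 1183 (7.45%), with the same 8 control libraries in each. The non-additivity term passed in 4984 genes (31.4%), with 2336 positive (14.7%) and 2648 negative (16.7%). Scaling to ERCC counts gave 2155 genes, 1618 positive and 537 negative, around a shift of 0.26 in the median of all genes, and summing per title tag gave 1307 genes, 587 positive and 720 negative. Of the 4231 genes higher in dcKO 1586 had a positive term, 52 a negative term and 2593 did not pass. Of the 4300 lower genes 2098 had a negative term and 96 a positive one; the dcKO and control libraries enter both quantities.

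The 6 most negative terms, among genes at 10 CPM or more, without overlap of dcKO and control and with tags less than 1 apart on the log2(CPM + 1) scale, included those of Mt1, Cdk6 and Zfp109. The Mt1 term of -8.03 (SE 0.39) came from a gene whose means were 76.4 CPM in Dis3 cKO, 85.9 CPM in Exosc10 cKO and 71.6 CPM in dcKO. Cdk6 was at means of 15.1 CPM in controls, 17.6 in Dis3 cKO, 12.6 in Exosc10 cKO and 0.867 in dcKO, a term of -4.08 (SE 0.49, edgeR adjusted p 1.1e-07). Zfp109 was at 40.7, 39.2, 81.3 and 5.45 CPM in the same order, so it was higher in Exosc10 cKO and lower in dcKO (term -3.84, SE 0.24, edgeR adjusted p 1.7e-14). Slc2a13, an inositol transporter (-3.36), Epha3, an ephrin receptor (-3.54), and Ccnd2, which encodes cyclin D2 (-3.76), had medians between 8.98 and 24.3 CPM in controls and in both single knockouts and between 1.17 and 1.99 CPM in dcKO. Under those limits the most positive term was in Fam19a1, which encodes a secreted brain peptide: its means were 0.363 CPM in controls, 0.0828 in Dis3 cKO, 0.694 in Exosc10 cKO and 14.1 in dcKO (6.20, SE 1.12, edgeR adjusted p 8.4e-05). Itgb4, an integrin (4.36), Gpr20 (4.11), Ppp1r3a, a glycogen-targeting phosphatase subunit (3.45), and Zgpat, a zinc finger repressor (3.31), had medians of at most 2.88 CPM in the other groups and at least 11.8 CPM in dcKO. BC023719 had a term of 4.35 with means of 29.8 CPM in controls, 0.671 in Dis3 cKO, 23.7 in Exosc10 cKO and 11.4 in dcKO.

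Oocytes of the 2 title tags were also compared within each group. Between tags 1596 genes were called within dcKO (10.0%) and 46 within controls (0.290%). Of 288 genes that were higher in dcKO and differed between its tags, tag 1 was the farther from control in 258 (89.6%), and of 891 such lower genes in 867 (97.3%). A difference between these numbers of genes was not itself tested. Some genes were on in oocytes of 1 tag and near 0 in those of the other. Sh3rf2 was at means of 0.0814 CPM in dcKO tag 1 and 18.9 in tag 2, and 47.8 and 22.9 in controls. Hist1h1b, a linker histone gene, was at 5.61 and 0.0195 CPM, and Gm46426 at 19.2 and 0.122 CPM, in the 2 dcKO tags. Arhgef15 followed the tag in both genotypes, at 0.0440 and 13.6 CPM in controls and 0.143 and 28.2 CPM in dcKO. Pknox2 was at 52.0 and 0.0920 CPM in controls and 0.717 and 27.1 CPM in dcKO, and the pseudogene Tgif2-ps2 was at 5.51 and 0 CPM in the control tags.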

How the data were processed

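Gene counts were deposited by the authors as whole numbers per gene and library, with ERCC counts in separate files; 55487 gene IDs were used and 0 rows named no gene. The submitters' processing notes name mm10, cutadapt 2.5, STAR 2.7.2a, SAMtools 1.9 and HTSeq 0.9.1; strand use and annotation release are not given in the sources used here. Deposited peak lists hold the authors' signal per peak, which was not used; only peak positions were. The 32 p20 libraries were fitted with edgeR 4.0.16 (R 4.3.3; TMM, filterByExpr, quasi-likelihood F test, Benjamini-Hochberg, threshold 0.05). SE was computed as |log2 fold change|/√F. CPM of single genes use the totals of the genes tested multiplied by TMM factors (0.915 to 1.02 in controls, 1.03 to 1.12 in dcKO). Marker sums use all gene counts without these factors. Levels are not corrected for gene length, so they compare oocytes, not genes. Shares, detection and the span measure were compared by 2-sided exact permutation tests over oocytes. The fit was tried on simulated counts with 15472 genes, of which 100 were changed by 1 and 100 by 2 on the log2 scale. It recovered 95% and 99% of these, and 5.4% of its calls were false. For non-additivity, with 15455 genes and 100 changed by each size, it recovered 74% and 96%, with 2.9% of calls false. In the data 53.7% of genes tested were called in dcKO, a far larger share than was changed in the simulation. Recovery was not split by level, so these rates do not speak for genes at low counts. No libraries agreed within sampling noise. Title numbers did not pair samples (same-number correlations -0.204 to 0.061).

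Genes were named by rule: the targets; the 12 largest log2 rises and falls and the 8 largest CPM rises and falls among genes called, at 10 CPM or more, without overlap and with tags that differed by less than 1 on the log2(CPM + 1) scale; up to 4 genes of smallest p per list, plus defining members; the 6 extreme non-additivity terms on each side; and genes that differed most between tags. Genes, lists and tests were chosen with earlier results of these data known. Of 239 genes so chosen 231 had a RefSeq position in GRCm38.p6, and 94 overlap another gene; some genes that meet the rule are not reported here. Alternatives were DESeq2 1.42.0, ERCC scaling, other filters, blocks, summed and thinned counts, and left-out libraries.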

Additional observations from a re-analysis of the deposited data

Results flagged for a closer look

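Of 112 sets of 8 values checked, 15 held an oocyte that lay far from the rest of its group, where chance alone gives about 1 in 20. Control 2_4 was the isolated oocyte in 7 of them. Its Chst11 level was 12.9 CPM against 56.7 to 78.7 in the other controls, and its Epha3 level 6.42 CPM against at least 16.3. Its levels of Zfp871 (2.89 CPM against at most 0.897), 2610017A05Rik (1.69 against at most 0.789), 2410022M11Rik (1.39 against at most 0.373) and Gpr20 (8.31 against at most 4.11) were above the other controls. For each of these genes the deviation was toward the dcKO level. Its difference between long and short genes, 1.91 against 2.10 to 2.24 in the other controls, was below theirs. Other isolated controls were 1_1 for 9530018F02Rik (0.717 CPM against at most 0.263), 1_2 for Cdsn (0.277 against at most 0.0996), 2_1 for Gdf9 (2561 against 3534 to 4365) and 2_2 for Gm49412 (0.450 against at most 0.199). Isolated dcKO oocytes were 2_1 for Cdk6 (2.68 CPM against at most 1.06), 1_2 for Gm6658 (29.3 against 3.73 to 14.9), 1_2 for Ppp1r3a (48.0 against 3.50 to 17.3) and 2_2 for Gpr20 (35.04 against 11.2 to 19.9).

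The effect of losing Exosc10 differed between oocytes with and without Dis3 for the 12 genes named by their non-additivity term (edgeR, log2). The terms were -8.03 for Mt1, -4.08 for Cdk6, -3.84 for Zfp109, -3.76 for Ccnd2, -3.54 for Epha3, -3.36 for Slc2a13, 3.31 for Zgpat, 3.45 for Ppp1r3a, 4.11 for Gpr20, 4.35 for BC023719, 4.36 for Itgb4 and 6.20 for Fam19a1.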

How the results depend on the processing

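The number of genes called in dcKO against control stayed within 1.5 times of 8531 in the refits with other tools, scalings, filters, blocks, summed or thinned counts and left-out tags, from 6071 (ERCC scaling) to 10556 (no filter on low counts). It was 4261 with a log2 fold change of at least 1 and 3099 for genes called whose groups also did not overlap. With the title number as replicate block it was 8412, and 4932 for non-additivity; the numbers share only a label. Leaving out 1 oocyte gave 8083 to 8713. Non-additivity was called in 2155 genes with ERCC scaling and 1307 with sums per tag, 4584 to 5447 with 1 oocyte left out, and the cause was not tested. Leaving out 1 oocyte gave log2 share differences of 1.36 to 1.62 for histone genes, -0.111 to -0.084 for long noncoding RNA, 0.173 to 0.206 for pseudogenes, 0.034 to 0.132 for mitochondrial RNA and -0.042 to 0.065 for small nuclear and nucleolar RNA, and 228 to 461 more genes detected. Without C86187 the long noncoding difference was -0.018, and at 5 counts the detection difference was 660. Depth differed between genotypes and cannot be told apart from them outside the thinned counts, an alternative chosen after seeing the data, which gave 7755 and 4611 genes. For 242 values of named genes the alternatives gave 7121 values, of which 0 turned direction, 139 lost and 8 gained a call. Many of these genes were chosen for groups without overlap, large changes or a small p, which favours few reversals.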
